A study of Homo sapiens with 18 samples.

Results

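ZFP42, the zinc finger gene also known as REX1 and used as a marker of undifferentiated pluripotent cells, was read together with 9 other genes linked to the pluripotent state, TRIML2, FOXD3, PRDM14, DPPA2, DPPA4, DPPA3, TFCP2L1, UTF1 and ESRG. These are 10 of the 57133 genes in the count table. They were taken by name, and ZFP42 was chosen by its counts, almost none of which were left in either PCGF6 knockout clone, so its difference from WT is given here as a description without a test. The same holds for the difference between knockout and WT of the other 9 genes, which were named with that contrast known.

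Expression was measured by RNA-seq in PGP1, an established human induced pluripotent stem cell line kept in mTeSR1 medium on Matrigel, without differentiation treatment. There were 2 libraries of WT cells, 2 of the knockout clone PCGF6KO1 (clone 1) and 2 of the knockout clone PCGF6KO2 (clone 2). Both clones were made with CRISPR-Cas9 and paired guides against the first exon of PCGF6, and each carries its own homozygous deletion. Each group is thus 1 line or 1 clone, the labels do not say that the 2 libraries of a group came from separate cultures, and p-values measure the spread between these libraries only, which may be technical. In the test of PCGF6-KO against WT, the 4 knockout libraries are 2 clones with 2 libraries each, taken as 4 replicates. Its spread thus mixes differences between the clones with differences between libraries of 1 clone.

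Pluripotent cells pass through a naive state, close to the cells of the blastocyst, and a primed state, close to the cells of the later epiblast, and human lines in mTeSR1 are usually primed. The genes described here encode regulators and markers that are active in pluripotent cells, in the early embryo or in germ cells, and several are known to be switched off as cells differentiate. PCGF6 is the subunit that defines the variant Polycomb complex PRC1.6, which contains E2F6 and MAX and is known to repress germline and early embryonic genes.

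Not all of the set was lost. In the 4 PCGF6-KO libraries against the 2 WT libraries, the log2 fold change was below −0.6 for 4 of the 10 genes (ZFP42, FOXD3, PRDM14 and DPPA3), above 0.6 for 1 (DPPA2) and between these limits for 5. Genes outside the set, and all genes between the clones, are called higher or lower when the adjusted p of edgeR's quasi-likelihood test is under 0.05 and the log2 fold change exceeds 0.6 in size. By that rule, 8.7% of all 17672 genes tested were called lower in PCGF6-KO against WT and 14.9% higher, 23.6% in all. All 10 genes passed the filter on low counts, ZFP42 and DPPA3 through their WT libraries alone. Over the 10, the median log2 fold change was −0.39, against 0.00 over all genes tested. Since the genes were named for this contrast, nothing is read from these counts. By range alone, the 4 PCGF6-KO libraries were all below the WT libraries for 6 genes and all above for 1, and ranges without overlap were found for 57.1% of all genes tested.

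Total counts ran from 15877396 to 18918609 per library. PCGF6 itself had 268 and 300 counts in the WT libraries, 99 and 103 in those of clone 1, and 187 and 159 in those of clone 2, or 16.4 and 18.0, 5.17 and 5.66, and 10.3 and 9.90 CPM, counts scaled to the size of each library. Transcripts of the gene thus remained in both clones, at lower levels than in WT, and more remained in clone 2 than in clone 1 (log2 difference 0.90 ± 0.15 SE, edgeR adjusted p = 5.44e-05). All libraries were rich in POU5F1, the core pluripotency factor, at 1410 to 1620 CPM. Markers of other cell types moved with the knockout (over all genes tested, 14.9% were called higher). The summed level of 10 mesendoderm markers was 4.13 to 5.4 CPM in WT, 688 to 696 in clone 1 and 918 to 924 in clone 2, and all 9 that were tested were called higher. HAND1, SOX17 and MESP1 were at 0 in both WT libraries. For 9 amnion and trophoblast markers the sums were 11.3 to 13.4, 82.6 to 88.7 and 145 to 156 CPM, with 6 of 8 tested called higher and TFAP2B at 0 in WT. For 6 fibroblast markers they were 239 to 242, 1480 to 1490 and 1720 to 1790 CPM, with 6 of 6 called higher and DCN and LUM at 0 in WT. For 7 neuroectoderm markers they were 277 to 323, 594 to 668 and 624 to 711 CPM, nearly all of it from NES, a widely expressed filament gene (276 and 322 CPM in WT and 591 to 708 in the knockout), and the other 6 were each below 2 CPM in every library. NES and LHX2 were called higher, PAX6 was not called and 4 could not be tested. The part of these marker changes in the values given here was not tested, and in bulk RNA fewer cells that express a gene cannot be told apart from less RNA of it per cell.

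The promoter sequences of 5 of the genes are shown because they include the pair of genes with the most different outcome at 1 locus, ZFP42 and TRIML2, the adjacent genes DPPA2 and DPPA4, and FOXD3, the most reduced of the 10 after ZFP42. Each is the 250 bases before the annotated start in RefSeq (GRCh38.p14), on the strand of the gene, 5′ to 3′. Capitals mark each CG pair, and in FOXD3 and TRIML2 also the motif match described after the sequences.
ZFP42, chr4:187995521-187995770, plus strand: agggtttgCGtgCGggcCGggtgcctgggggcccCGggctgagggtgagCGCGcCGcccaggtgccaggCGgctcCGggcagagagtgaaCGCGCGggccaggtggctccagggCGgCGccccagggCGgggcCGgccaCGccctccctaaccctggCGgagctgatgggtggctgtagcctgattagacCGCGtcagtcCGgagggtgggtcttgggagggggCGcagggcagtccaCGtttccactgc
TRIML2, chr4:188109604-188109853, minus strand: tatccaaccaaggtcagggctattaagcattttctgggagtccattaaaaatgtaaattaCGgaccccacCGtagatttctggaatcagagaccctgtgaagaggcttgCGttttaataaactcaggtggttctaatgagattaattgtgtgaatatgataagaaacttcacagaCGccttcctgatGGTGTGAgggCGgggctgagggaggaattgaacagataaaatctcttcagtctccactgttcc
FOXD3, chr1:63322317-63322566, plus strand: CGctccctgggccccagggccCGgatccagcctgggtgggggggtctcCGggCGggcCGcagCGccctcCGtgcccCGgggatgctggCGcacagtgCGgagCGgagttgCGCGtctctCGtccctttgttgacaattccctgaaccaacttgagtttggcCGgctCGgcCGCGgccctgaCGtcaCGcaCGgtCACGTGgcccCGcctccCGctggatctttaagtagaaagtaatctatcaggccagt
DPPA2, chr3:109316518-109316767, minus strand: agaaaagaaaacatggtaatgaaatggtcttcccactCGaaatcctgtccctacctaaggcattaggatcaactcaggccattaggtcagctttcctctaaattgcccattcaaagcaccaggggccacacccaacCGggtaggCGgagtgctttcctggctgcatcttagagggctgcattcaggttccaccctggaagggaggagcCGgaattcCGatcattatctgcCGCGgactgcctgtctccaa
DPPA4, chr3:109337547-109337796, minus strand: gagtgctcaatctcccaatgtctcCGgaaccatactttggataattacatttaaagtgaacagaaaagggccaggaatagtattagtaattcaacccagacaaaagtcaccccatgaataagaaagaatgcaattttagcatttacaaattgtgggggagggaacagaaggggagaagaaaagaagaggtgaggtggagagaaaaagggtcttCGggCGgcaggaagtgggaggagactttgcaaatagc
The ZFP42 and FOXD3 sequences hold 23 and 24 CG pairs, whereas those of TRIML2, DPPA2 and DPPA4 hold 5, 7 and 3.

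Promoters of 8 of the 10 genes were read, in 9 entries of 300 bases (250 before and 50 after the start). Entries on chromosome 8, where PRDM14 lies, were left out, and none was read for ESRG. Their CG pairs numbered 24 in ZFP42, 29 in FOXD3, 43 in TFCP2L1 and 39 in UTF1, above the median of 14 over 35116 promoters. DPPA3 and the printed entry of TRIML2 had 6, the other TRIML2 entry 9, DPPA2 7 and DPPA4 5, all below that median. Genes with a log2 fold change below −0.6 were found on both sides (ZFP42 and FOXD3 above, DPPA3 below, with PRDM14 not read), as were genes within the limits. On both strands, 4 motifs were searched, and none of their matches overlapped another. The E-box CACGTG, a palindrome bound by MYC and MAX family proteins, is present in 7.26% of all promoters and was found once, in FOXD3, starting 56 bases before the start. The T-box motif GGTGTGA, present in 3.45%, was found once, in TRIML2, starting 63 bases before the start. The octamer core TTTGCAT, the site read by POU factors, present in 4.46%, was found once, on the reverse strand of DPPA3, starting 161 bases before the start. The E2F6 motif GCGGGAA, present in 6.55%, was found in none of the 9 entries. A match is a description of letters and not a bound site.

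ZFP42, a relative of the widely expressed factor YY1, lies on chromosome 4 (chr4:187995771-188005046, GRCh38, plus strand, 4 exons). It had 304 and 329 counts in the WT libraries, 2 and 2 in clone 1, and 2 and 1 for clone 2. In scaled units these were 18.6 and 19.7 CPM in WT, 0.104 and 0.110 in clone 1, and 0.110 and 0.0622 for clone 2. Every knockout library was far below both WT libraries, and the 4 knockout libraries lay close together. With counts this low, the WT level was 179 times that of clone 1 (exact 95% interval 69.6 to 659) and 219 times that of clone 2 (74.5 to 1060). Over both clones the remaining level was 0.510% of WT (0.204 to 1.06%). These intervals cover counting error only. No difference between the clones was detectable at this depth, with a log2 difference of clone 2 from clone 1 of −0.27 and a 95% interval of −2.13 to 1.59. That interval rests on the SE derived from the test, which understates the error at counts this low. ZFP42 was chosen as almost lost in both clones, which left little room for a difference.

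Among the 9529 genes with at least 10 CPM in both WT libraries, ZFP42 had the smallest share of its WT level left in the knockout, 0.504% by mean CPM. The next was SFRP1, a secreted WNT antagonist, with 2.6%. No other gene in that group was under 2%, and 15 were under 10%. FOXD3 stood at rank 29 and PRDM14 at rank 159 of this order. Since ZFP42 was chosen for its loss, its first place restates the choice. The limit of 10 CPM also left out genes with a lower WT level. One of these was ZNF680, with 1.72 and 2.33 CPM in WT and 0 in every knockout library. Per length, the WT level of ZFP42 (7.22 CPM per kilobase) was above that of 68.1% of tested genes, and its knockout level was above that of 0.272%. Tested genes are those that passed the filter on low counts, which ZFP42 passed through WT alone. Its low place in the knockout thus follows from the filter.

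**Figure D1:**
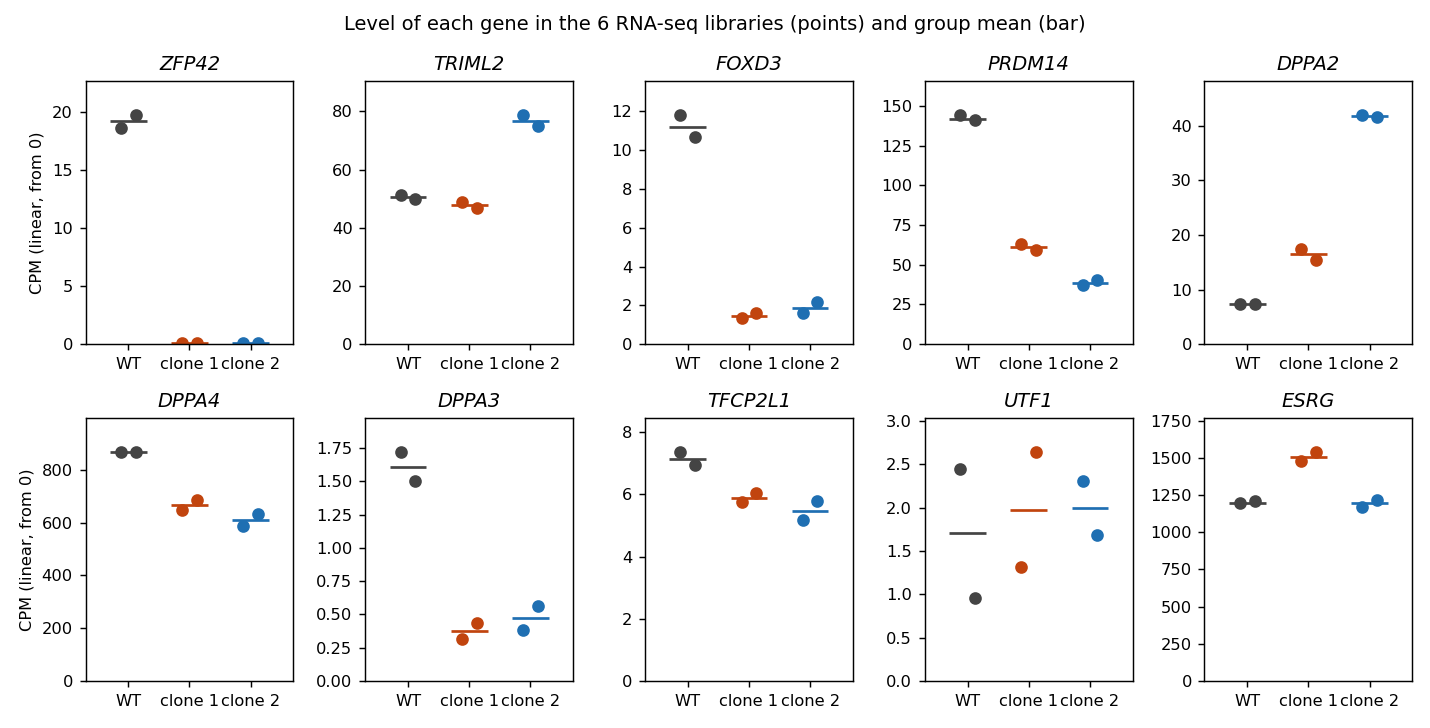
Level of the 10 genes in CPM (linear axes from 0, a separate scale for each gene) in the 2 WT libraries, the 2 libraries of clone 1 and the 2 of clone 2, with points for libraries and bars for group means. ZFP42 points lie at 0.0622 to 0.110 CPM in both clones against 18.6 and 19.7 in WT, DPPA2 points lie at 7.36 in WT and at 41.6 and 41.9 in clone 2, and the libraries of UTF1 overlap between all groups.

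TRIML2, a gene of the tripartite motif-like family, lies 86226 bases from ZFP42 on the opposite strand (chr4:188091272-188109603, 8 exons). It had 51.3 and 50.0 CPM in WT, 48.7 and 46.9 in clone 1, and 78.6 and 75.0 for clone 2. The clone 1 libraries were just below WT and the clone 2 libraries above. Against WT the log2 fold change was −0.08 ± 0.08 (SE) in clone 1 and 0.60 ± 0.08 in clone 2, where it just passed the fold threshold and was 0.58 without the second WT library or 0.57 without the first clone 2 library. Clone 2 was called higher than clone 1 (log2 difference 0.68 ± 0.08 SE, edgeR adjusted p = 1.85e-07, 95% interval 0.54 to 0.83). ZFP42 amounted to 36.4% and 39.4% of the TRIML2 level (CPM) in the WT libraries and to 0.083% to 0.234% in the knockout libraries, so the loss at this locus was not shared by its expressed neighbour. TRIML1, the other family member nearby, was at 0 in every library.

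FOXD3, a forkhead factor of pluripotent cells and neural crest, is a single-exon gene on chromosome 1 (chr1:63322567-63325128, plus strand). Counts of 192 and 179 were found in WT, 26 and 29 for clone 1 and 29 and 35 for clone 2, which are 11.8 and 10.7 CPM, 1.36 and 1.59 CPM, and 1.6 and 2.18 CPM. All knockout libraries were below both WT libraries. The log2 fold change against WT was −2.93 ± 0.21 (SE) in clone 1 and −2.58 ± 0.20 in clone 2, which left 13.1% and 16.8% of the WT mean. The clones were not separated by the test (log2 difference 0.35, 95% interval −0.20 to 0.89, edgeR adjusted p = 0.438). FOXD3 shares 618 exonic bases with the antisense transcript FOXD3-AS1, and the strand setting of the counting is not given in the sources used here, so reads of the 2 genes may be mixed. FOXD3-AS1, at 57.7 and 54.3 CPM in WT, had 6.54 to 12.9 CPM in the knockout and was called lower (log2 fold change −2.47 ± 0.21 SE, edgeR adjusted p = 3.03e-05). It was called higher in clone 2 than in clone 1 (0.70 ± 0.14 SE, edgeR adjusted p = 4.15e-04), and whether the 2 genes differ in this was not tested.

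PRDM14, a PR domain zinc finger regulator of pluripotency and of primordial germ cells, lies on chromosome 8 (chr8:70051651-70071693, minus strand, 8 exons). Its level was 144 and 141 CPM in WT, 62.8 and 59.4 in clone 1, and 37.1 and 40.4 for clone 2. The 3 groups formed 3 steps that did not overlap. Against WT the log2 fold change was −1.22 ± 0.07 (SE) in clone 1 and −1.88 ± 0.07 in clone 2, leaving 42.9% and 27.2% of the WT mean. PRDM14 was called lower in clone 2 than in clone 1 (−0.66 ± 0.08 SE, edgeR adjusted p = 3.31e-07, 95% interval −0.81 to −0.51), and without the first clone 2 library the difference was −0.60 and no longer passed the fold threshold.

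DPPA2 and DPPA4 encode chromatin proteins with a SAP domain that bind each other, and their genes lie 9627 bases apart on the minus strand of chromosome 3 (DPPA2 chr3:109293788-109316517, 9 exons, and DPPA4 chr3:109326144-109337546, 7 exons). WT libraries held 120 and 123 DPPA2 counts, clone 1 held 336 and 282, and clone 2 held 760 and 668. The CPM were 7.36 in both WT libraries, 17.5 and 15.5 in clone 1, and 41.9 and 41.6 for the other clone. DPPA2 was the only one of the 10 genes with every knockout library above both WT libraries. The log2 fold change against WT was 1.17 ± 0.12 (SE) in clone 1 and 2.50 ± 0.11 in clone 2, and clone 2 was called higher than clone 1 (1.33 ± 0.10 SE, edgeR adjusted p = 1.73e-10, 95% interval 1.14 to 1.53). Over the 4 knockout libraries the log2 fold change was 1.98 ± 0.46 (SE).

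DPPA4, unlike DPPA2, was lower in the knockout. It had 866 and 867 CPM in WT, 646 and 686 in clone 1, and 586 and 633 for clone 2, all knockout libraries being below WT. Its log2 fold change against WT, −0.38 ± 0.05 (SE) in clone 1 and −0.51 ± 0.05 in clone 2, stayed under the fold threshold, as did the difference between the clones (−0.13 ± 0.05 SE, edgeR adjusted p = 0.101). Per length, DPPA2 amounted to 3.07% of DPPA4 in each WT library, 9.81% and 8.15% in clone 1, and 25.8% and 23.7% for clone 2. The partner genes were thus far from equal in RNA level in every library, and the gap was narrowest in clone 2.

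DPPA3, also called STELLA, is known for guarding methylation in the oocyte and zygote and marks germ cells (chr12:7711433-7717559, plus strand, 4 exons). It was near the lower end of measurement, with WT counts of 28 and 25, clone 1 counts of 6 and 8 and clone 2 counts of 7 and 9. No knockout library reached the WT counts. By pooled counts, WT was 4.28 times clone 1 (exact 95% interval 2.34 to 8.36) and 3.43 times clone 2 (1.93 to 6.44). These intervals cover counting error only and are no test, as DPPA3 was named with this contrast known. The log2 difference of clone 2 from clone 1 was 0.31 with a 95% interval of −0.78 to 1.41. How reads that map to several places were counted is not given in the sources used here, and DPPA3 has processed pseudogenes, so its low counts are uncertain beyond counting error.

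TFCP2L1, a transcription factor of the grainyhead and CP2 family that belongs to the naive network, was low (chr2:121216587-121285202, minus strand, 15 exons). Its levels were 7.36 and 6.94 CPM in WT, 5.74 and 6.04 in clone 1, and 5.18 and 5.79 for clone 2. All knockout libraries were below WT by a small step, with log2 fold changes of −0.28 ± 0.16 (SE) and −0.39 ± 0.17 that lay within the fold limits. UTF1, a chromatin-associated protein of undifferentiated cells (chr10:133230217-133231558, plus strand, 2 exons), had WT counts of 40 and 16, clone 1 counts of 25 and 48 and clone 2 counts of 42 and 27. The replicates of UTF1 differed from each other by more than the groups did, and the log2 fold change of 0.22 ± 0.42 (SE) over both clones turned to −0.30 without the second WT library. TFCP2L1 and UTF1 also showed no detectable difference between the clones, with log2 intervals of −0.44 to 0.22 and −0.67 to 0.74.

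ESRG, a long non-coding RNA driven by an endogenous retrovirus of the HERVH family, lies inside CACNA2D3 on the opposite strand, without shared exon bases (chr3:54632122-54639857, minus strand, 4 exons). It was the most abundant of the 10, with 1200 and 1210 CPM in WT, 1480 and 1540 in clone 1, and 1170 and 1220 for clone 2. Clone 1 stood above the other groups, and the libraries of clone 2 overlapped those of WT. The log2 fold change against WT was 0.33 ± 0.05 (SE) in clone 1 and −0.01 ± 0.05 in clone 2. The difference of clone 2 from clone 1, −0.33 ± 0.05 SE, had an edgeR adjusted p of 1.81e-05 but stayed under the fold threshold.

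**Figure D2:**
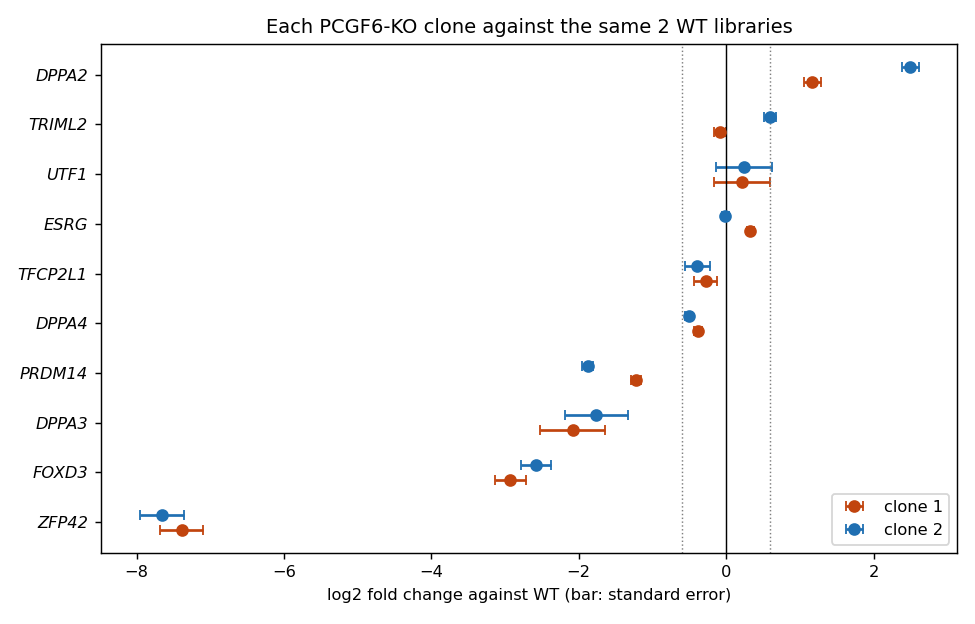
Log2 fold change of each gene in clone 1 and clone 2 against the same 2 WT libraries, with bars for the SE derived from the test and dotted lines at the fold threshold of 0.6. For ZFP42 the bars understate the error, as an interval built from them is narrower than its exact counting interval. ZFP42, FOXD3, DPPA3 and PRDM14 lie beyond the lower line in both clones, DPPA2 beyond the upper line in both, and TRIML2 at the upper line in clone 2 (0.60) and near 0 in clone 1 (−0.08).

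Set side by side, and with no test for the 10 against WT, 4 genes lay below −0.6 and 1 above 0.6 in clone 1, and 4 below and 2 above in clone 2. The comparisons share the WT libraries, and ZFP42 was chosen for its loss in both clones, so these counts are no sign that the clones agree. Over all genes tested, 24.8% were called in clone 1 (16.0% higher and 8.8% lower) and 29.4% in clone 2 (16.9% higher and 12.5% lower). The direct test between the clones called DPPA2 and TRIML2 higher and PRDM14 lower in clone 2. These are 3 of the 10 genes, where 7.87% of all genes tested were called (3.73% higher and 4.14% lower). ZFP42 is counted among the 10 but was chosen as almost lost in both clones, which left little room for a call. The other genes were named with earlier results of these data known. By range, 6 of the 10 did not overlap between the clones, against 55.5% of all genes. The median log2 difference of the 10 was −0.04, against 0.01 over all genes. Of the mesendoderm markers, 5 of 9 tested were called higher in clone 2 than in clone 1 and none lower, and of the amnion and trophoblast markers 5 of 8 were called higher and 1 lower. The part of these markers in the clone differences of DPPA2, TRIML2 and PRDM14 was not tested.

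The order of the genes by level per length also changed. In WT it ran from ESRG (383 CPM per kilobase) through DPPA4 (173), PRDM14 (58.3), TRIML2 (16.6), ZFP42 (7.22), FOXD3 (5.39), DPPA2 (5.32), DPPA3 (1.49) and UTF1 (1.47) to TFCP2L1 (0.763). FOXD3 and DPPA2 overlapped, as did DPPA3 and UTF1. In clone 2 DPPA2 had moved up to the third place (30.2 CPM per kilobase), above TRIML2 (25.2) and PRDM14. ZFP42 had moved from the fifth place to the last, at 0.0403 in clone 1 and 0.0325 in clone 2, below DPPA3 (0.349 and 0.438). Together the 10 genes took 0.237% and 0.236% of all counts in the WT libraries and 0.229% and 0.239% in those of clone 1. In clone 2 the share was lower, at 0.186% and 0.194%. Most of it came from ESRG and DPPA4 in each library.

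The genes around the 10 were read to see whether whole neighbourhoods moved. Of 50 other genes that overlap a member or are among the 3 nearest on a side, 33 had at most 3 counts in each library, and 13 could be tested, of which 3 were called higher, 3 lower and 7 not, where 14.9% and 8.7% of all genes were. Taken by clone, 1 was called higher and 2 lower in clone 1, where 16.0% and 8.8% of all genes tested were. In clone 2, 3 were called higher and 4 lower, where 16.9% and 12.5% of all genes tested were. GDF3, a TGF-beta ligand gene 15658 bases from DPPA3, had 283 and 296 counts in WT and 1034 to 1399 in the knockout (17.4 and 17.7 CPM against 56.8 to 77.9, edgeR adjusted p = 1.82e-05), opposite to DPPA3. NANOG, a core pluripotency factor 70235 bases from DPPA3 on the other side, was higher by 0.40 on the log2 scale, under the fold threshold (edgeR adjusted p = 0.0139). Beside PRDM14, the nuclear receptor coactivator NCOA2 was called lower (−0.80, edgeR adjusted p = 0.00136). FOXD3-AS1 is also counted among the lower calls, but it shares exonic bases with FOXD3, so reads of the pair may be mixed. ALG6, a glycosylation enzyme gene 42447 bases from FOXD3, was called lower (−0.65, edgeR adjusted p = 0.0423), while VENTX beside UTF1 and CACNA2D3 around ESRG were called higher (0.64 and 0.65, edgeR adjusted p = 0.00818 and 0.0351). These 3 were not called in clone 1 (−0.35, 0.58 and 0.40) and were called in clone 2 (−1.04, 0.70 and 0.87). The called count fell from 6 to 3 without the first WT library and likewise without the first clone 2 library.

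Lists of genes from the same states were read beside the 10 (a list does not test the members, and counts are given as descriptions). Over all genes tested, 14.9% were called higher and 8.7% lower. Of 13 primed-state genes, 10 were called lower and 3 were not called, with a median log2 fold change of −1.12 against 0.00 over all genes tested. ZIC5, a zinc finger factor, was called lower (log2 fold change −2.33, edgeR adjusted p = 1.33e-05), as were the surface protein gene CD24 (−1.30, 2.76e-06) and SALL2 (−1.31, 6.57e-06). Of 20 naive-state genes, 11 could be tested, and 8 were called higher, 1 lower and 2 not, with a median of 1.70. KLF5, a Kruppel-like factor, had 73 and 68 counts in WT and 793 to 1274 in the knockout. DNMT3L, a cofactor of DNA methyltransferases, had 0 and 2 in WT and 52 to 72 in the knockout, and TBX3, a T-box factor, 2 and 2 in WT and 359 to 1149 in the knockout. ESRRB, an orphan nuclear receptor, was called lower (−1.24 ± 0.36 SE, edgeR adjusted p = 0.0263). The naive markers KLF17 and DPPA5 were near 0 in every library and TRIM60 and ZNF729 were at 0. TBX3 is also expressed in other early lineages, so a list name does not identify the state of the cells.

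Of 17 core pluripotency genes, 4 were called higher, 3 lower and 10 not (median −0.13), and taken by clone 4 were called higher and 2 lower in clone 1, and 4 higher and 6 lower in clone 2. Shares over all genes tested were 14.9% higher and 8.7% lower, 16.0% and 8.8% in clone 1, and 16.9% and 12.5% in clone 2. NODAL, a TGF-beta family ligand (log2 fold change 3.76, edgeR adjusted p = 4.37e-07), FGF4, a growth factor (4.49, 1.40e-05), and LEFTY2, a NODAL antagonist (2.39, 1.13e-05), were called higher. USP44, a deubiquitinase (−2.04, edgeR adjusted p = 2.92e-05), and the telomere protein gene TERF1 (−1.81, 9.63e-07) were called lower. SOX2, a core factor named here after its values were seen, was the third called lower (−0.69 ± 0.19 SE, edgeR adjusted p = 0.0178), at −0.41 in clone 1, within the fold limits, and −1.04 in clone 2. Of 7 transcripts associated with HERVH, like ESRG, 6 were called higher and 1 lower (median 2.0). ABHD12B rose by 6.05 on the log2 scale (edgeR adjusted p = 1.12e-07), LINC-ROR by 3.77 (8.31e-08) and LINC01108 by 3.27 (8.00e-06), and LINC00678 was called lower (−0.94, 7.93e-06). CALB1 had the smallest fold change of the 7 over both clones (0.61, edgeR adjusted p = 0.0496), with 0.26 in clone 1, where it was not called, and 0.89 in clone 2. ESRG had 0.17 ± 0.11 (SE) over both clones, and in clone 1 its 0.33 was above that of CALB1. Of 8 cleavage-stage genes, among them DUX4 and ZSCAN4, none could be tested and 4 were at 0 in every library.

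Relatives and partners of the 10 genes did not share one direction. Of 30, 23 could be tested, and 7 were called higher, 3 lower and 13 not (median 0.29). Over all genes tested, 14.9% were called higher and 8.7% lower, with a median of 0.00. YY1, the relative of ZFP42, had a log2 fold change of −0.06 (edgeR adjusted p = 0.505). Among relatives of PRDM14, PRDM1, a germ cell and B cell regulator, had 6 and 4 counts in WT and 160 to 255 in the knockout (edgeR adjusted p = 2.40e-05), and PRDM6 had 0 and 2 in WT and 20 to 40 in the knockout (0.00156). Among grainyhead relatives of TFCP2L1, GRHL3 was called higher (4.83, edgeR adjusted p = 3.25e-05) and GRHL2 lower (−0.80, 1.09e-04). Of the 23, 5 were called higher in clone 2 than in clone 1 and none lower, where 3.73% and 4.14% of all genes tested were.

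The genes with the most similar profiles were found by the Euclidean distance between centred profiles of log2(CPM + 0.1) over the 6 libraries, among 16063 genes. Nearest to ZFP42, whose own profile spanned 6.93 log2 units, were SFRP1 (distance 1.63), PAX8-AS1 (1.79), ZNF680 (2.6), SYP (2.74) and TMEM151B (2.90). ZNF680, a zinc finger gene, had 28 and 39 counts in WT and 0 in all 4 knockout libraries. SYP, which encodes the synaptic vesicle protein synaptophysin, had 155 and 165 in WT and 4 to 12 in the knockout. FOXD3 was nearest to ADGRG2 and DGKB, PRDM14 to ATP2B2 and KCNK5, DPPA2 to RIN2 and GGT1, DPPA4 to UBE4B and NLN, and DPPA3 to GALNT18 and SYT9. TRIML2 was nearest to ITGA9 and NDRG2, TFCP2L1 to INTS6 and RBMXL1, UTF1 to RAB11FIP1P1 and DEPDC4, and ESRG to COPS4 and TRIM25. None of the 10 genes was among the nearest of another.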

How the data were processed

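RNA-seq libraries of WT PGP1 cells and of 2 PCGF6-KO clones were used, 2 libraries per group. The authors trimmed reads with Trim Galore (0.6.2), aligned them to GRCh38 with HISAT2 (2.1.0), counted them per gene with featureCounts and deposited raw counts, with gene lengths beside them. Which annotation release was used, whether strand was counted and how multi-mapped reads were treated is not given in the sources used here. ChIP-seq libraries were not used here.

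Genes with low counts were removed with filterByExpr, which left 17672 of 57133 genes. Libraries were scaled by TMM, and edgeR (4.0.16, R 4.3.3) quasi-likelihood tests compared PCGF6-KO with WT and, in a fit of 3 groups, each clone with WT and the clones with each other. Adjusted p-values are Benjamini-Hochberg values over all genes tested, and a call needs a value under 0.05 together with a log2 fold change over 0.6 in size. CPM were computed from the TMM-scaled totals. The common biological coefficient of variation was 0.12. The procedure was tested on simulated data. Positions are from GENCODE release 44. Alternatives were DESeq2 (1.42.0), RLE scaling, no filter, no fold limit, a replicate block and leaving out each library in turn. The 10 genes and the lists were chosen with earlier results of these data known. Of each list, up to 3 genes with the largest rise and 3 with the largest fall among those called alike in both clones are named, with the neighbours that were called, the nearest profiles and PCGF6. POU5F1, SOX2, PAX6, NANOG, SOX17, MESP1, KLF17, DPPA5, TRIM60, ZNF729, TRIML1, YY1, CALB1, DUX4 and ZSCAN4 were named after their values were seen. 1 gene of the primed-state list is not reported here and is not in its counts.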

Additional observations from a re-analysis of the deposited data

Results flagged for a closer look

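In 3 of the 10 genes the 2 clones differed by a direct test in the fit of all 6 libraries, where 7.87% of all genes tested were called. The 10 genes were named with earlier results of these data known. Clone 2 minus clone 1 on the log2 scale was 1.33 for DPPA2, 0.68 for TRIML2 and −0.66 for PRDM14. Of the 3 genes, DPPA2 differed from WT in the same direction in both clones and by more in clone 2, PRDM14 was lower in both and lower still in clone 2, and TRIML2 was near the WT level in clone 1. Without the first clone 2 library, the difference of PRDM14 between the clones no longer passed the fold threshold.

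Within the 4 PCGF6-KO libraries, the second clone 2 library stood apart for ZFP42 CPM, with a gap to the nearest library of 0.881 of the whole range, above Dixon's 95% critical value for 4 samples. That library had 1 count where the other 3 had 2 each, so the gap is a single read. The critical value is made for continuous, normally distributed values, so it gives no error rate for counts this low. In addition, ZFP42 was chosen by these counts, and 10 genes were looked at.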

How the results depend on the processing

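Without the fold limit the calls rose from 4167 to 6556 in PCGF6-KO against WT, from 4379 to 8002 in clone 1 and from 5197 to 8904 in clone 2 against WT, and from 1390 to 3442 between the clones, where DESeq2 gave 810. Leaving out each library in turn gave 3019 to 4270 calls in PCGF6-KO against WT. Over 440 recomputed fold changes of the 10 genes none turned direction while called, and DESeq2, RLE scaling, no filter and the replicate block changed none of their calls in the 4 comparisons. Against WT the call rule is only a label for them, which DPPA2 over both clones lost without either WT library (1.98), and TRIML2 in clone 2 against WT was 0.58 without the second WT library and 0.57 without the first clone 2 library. UTF1, outside the call rule in all settings, was −0.30 without the second WT library. Counts of list genes under each setting were added after the data were seen. Of the 23 nearest profiles, 13 were also found with 0.5 CPM added in place of 0.1, 4 of the 5 of ZFP42 among them.

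Over 15104 genes, the differences between replicate numbers correlated at 0.042 for WT with clone 1, 0.0531 for WT with clone 2 and 0.162 for clone 1 with clone 2. The labels give only a number, and whether libraries with the same number share a batch was not tested. With a replicate block in the fit, 3876 genes were called in PCGF6-KO against WT, 4420 in clone 1 and 5233 in clone 2 against WT, and 1484 between the clones.

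At 15877396 counts or more per library, the level of ZFP42 in the knockout rests on 7 reads in all, and DPPA3 and UTF1 on under 50 in each library. Only 2 libraries per group and 1 line per group limit what the errors cover.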
